A study of Drosophila melanogaster with 42 samples.

Results

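In embryos of gd7 mothers, 760 accessible regions that had an ATAC-seq peak in wild-type embryos at 2 to 3 h after egg laying lacked one. They were chosen by merging the peaks of 12 lists, 6 of OreR and 6 of gd7, from the windows 2to2.5 and 2.5to3, wherever peaks overlapped by at least 1 bp. A region was kept if a peak was present in at least 5 of the 6 OreR lists and in at most 1 of the 6 gd7 lists. The 12 lists gave 69069 merged regions, of which 34278 had a peak in at least 5 OreR lists, and the 760 members made up 2.22% of these. The opposite pattern, a peak in at least 5 gd7 and at most 1 OreR list, was found at 462 regions. Both the number of members and their identity rest on the peak calls of these 12 libraries, so their late gd7 values are given as a description.

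ATAC-seq reads open chromatin by letting the transposase Tn5 add sequencing adapters to the DNA it can reach. The 42 libraries fell into 14 groups of 3: wild-type Oregon-R (OreR), gd7 and zld- embryos in windows of 1to1.5, 1.5to2, 2to2.5 and 2.5to3 h, counted from egg laying, with cic6 embryos for the latter pair only. Embryos came from population cages and were sorted by hand, with 400 per library at 1to1.5, 100 at 1.5to2 and 40 in each later window. The labels give only the genotype names, without the stock each allele was kept in or the way zld- embryos were made (names of deposited files speak of RNAi), so genotype and stock cannot be told apart. Nothing says that the replicates came from separate cages. The number of reads per library is not given with the peak lists, so depth is unknown and the length of a list, 6831 to 58137 peaks, stands in for it.

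The gene gd encodes a serine protease of the maternal cascade that activates the Toll ligand Spaetzle on the ventral side of the egg. Without it the transcription factor Dorsal stays out of the nuclei, mesoderm and neuroectoderm are not specified, and all cells take a dorsal fate. Dorsal works with Twist and Zelda at enhancers of ventral genes such as twi and sna. Zelda, encoded by zld, is a maternal pioneer factor that opens many early enhancers, and Capicua, encoded by cic, is a repressor relieved by receptor tyrosine kinase signalling at the embryo's poles.

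Most of the missing peaks were weak ones. The median fold enrichment over background of the members in the 6 OreR lists was 1.97, against 2.41 over all 34278 regions, and the median width was 563.5 bp against 951 bp; these are the authors' values per peak. When all regions were ranked by OreR fold enrichment and divided into 5 strength groups of equal size, the weakest group held 374 members and the strongest 35. Of the members, 173 had a peak in all 6 OreR and no gd7 list, 157 in all 6 OreR and 1 gd7 list, 197 in 5 OreR and no gd7 list, and 233 in 5 OreR and 1 gd7 list. Just outside the threshold lay 610 regions with a peak in 2 gd7 lists, whose median fold enrichment of 1.96 resembled that of the members, and regions with a peak in 4 OreR lists, 325 of them with no gd7 list and 507 with 1. A missing peak means that no peak was called and does not by itself mean closed chromatin, and in whole embryos fewer nuclei with an open region and less opening per nucleus cannot be told apart.

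The strongest members were large wild-type peaks with no called peak in most gd7 libraries. The member with the highest fold enrichment lay on the left arm of chromosome 3 at chr3L:27656-28745, 1348 bp from mthl8, a gene of the Methuselah-like family of G protein-coupled receptors. Its fold enrichment in the 6 late OreR lists had a lowest value of 10.8, a median of 12.3 and a highest value of 14.1, and 1 gd7 list of 2.5to3 held a peak there, of 1.88. This missing peak came without a lower tested signal: the wider tested region around it was called higher in gd7, as described below. A member inside Fs(2)Ket, which encodes the nuclear import receptor importin beta, at chr2L:20746628-20747468 had OreR values of 4.76 to 6.69 with a median of 5.39. None of the 12 gd7 lists held a peak at this Fs(2)Ket member, while all 12 OreR lists did. A member inside SNF4Agamma, the gamma subunit gene of AMP-activated protein kinase, at chr3R:21148645-21149398 ranged from 5.11 to 7.45 in the late OreR lists and had no peak in any gd7 list.

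**Figure D1:**
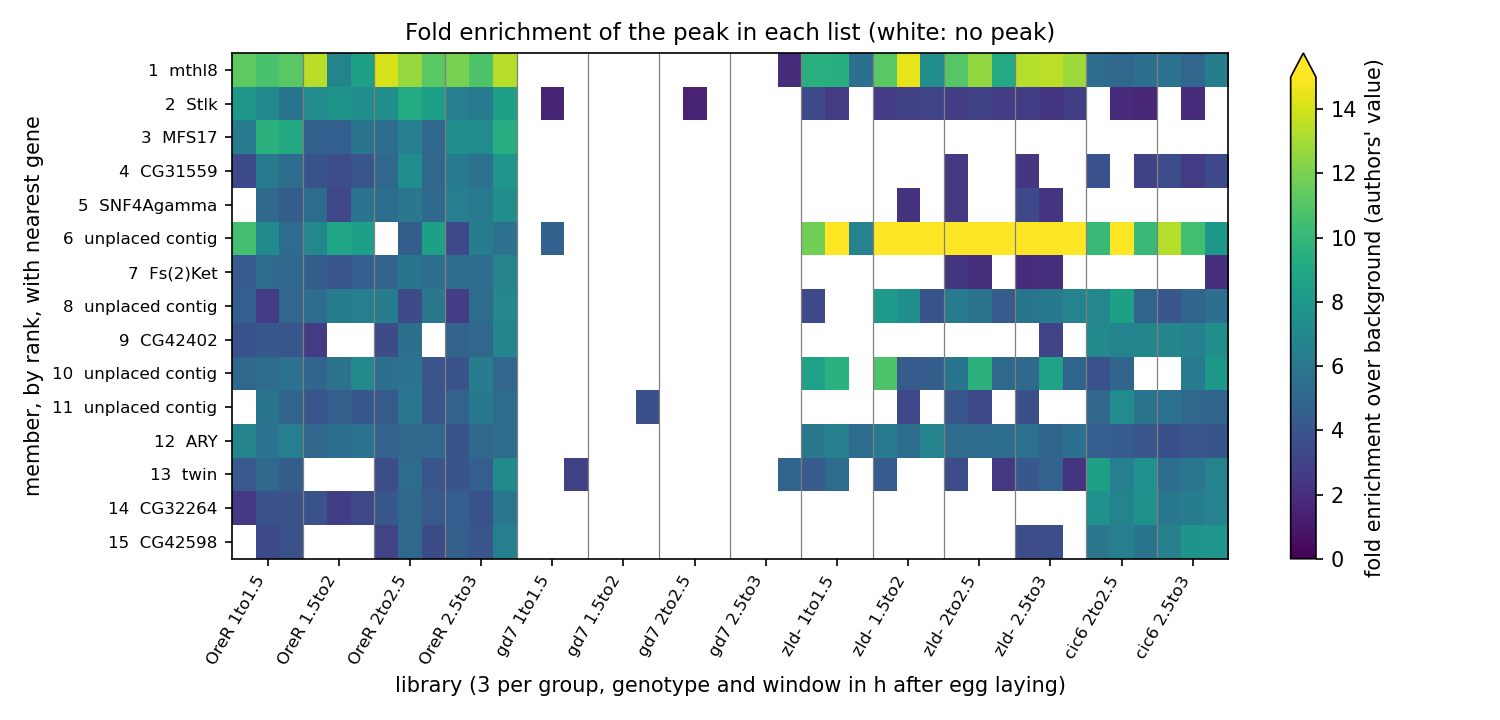
Fold enrichment of the peak in each of the 42 lists for the 15 members with the highest mean OreR value at 2 to 3 h, named by their nearest gene; white cells hold no peak and colours above 15 are drawn as the top colour. The gd7 columns are almost empty in all 4 windows, while the zld- and cic6 columns differ from member to member.

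The state of these 15 members in the other genotypes varied. The region between genes nearest MFS17, a gene of the major facilitator family of transporters, at chr2R:2483671-2484495 had OreR values of 5.09 to 9.32 and no peak in any gd7, zld- or cic6 list. The member in CG32264 had OreR values of 3.75 to 5.86, no peak in the 12 zld- lists, and values of 6.01 to 7.70 in all 6 cic6 lists. On the Y chromosome, a member 84477 bp from ARY had values of 3.88 to 5.30 in the late OreR lists, a peak in every zld- and cic6 list and none in any gd7 list. Of the 15, 7 had a peak in at least 5 of 6 late zld- lists and 10 in at least 5 of 6 cic6 lists. Unplaced contigs without annotated genes held 4 of the 15, and reads from repeats cannot be assigned to them with certainty.

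The gd7 libraries of 1 to 2 h, which the choice of members did not use, also lacked most of these peaks. At 1to1.5 the 3 OreR lists held a peak at 32.4%, 51.2% and 52.6% of members, with a mean of 45.4% ± 11.3 (SD, n = 3), and the 3 gd7 lists at 3.82%, 9.08% and 15.5%, with a mean of 9.47% ± 5.87 (SD, n = 3). The lowest OreR list thus lay above the highest gd7 list. Over all 34278 regions the means in that window were 78.5% in OreR and 68.3% in gd7. At 1.5to2 the OreR lists held 56.6%, 68.8% and 72.1% of members and the gd7 lists 9.74%, 15.9% and 22.8%, again without overlap. Over all regions the means at 1.5to2 were 90.9% and 83.5%. No peak in any of the 6 early gd7 lists was found at 426 members, or 56.1%, compared with 3.95% of all regions, and 262 members lacked a peak in all 12 gd7 lists. A peak in every OreR list and in no gd7 list, over all windows, was found at 45 members. The early gd7 lists were somewhat shorter, with 29989 to 54501 peaks against 38663 to 56863 in OreR, and the part of this in the missing peaks was not tested.

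**Figure D2:**
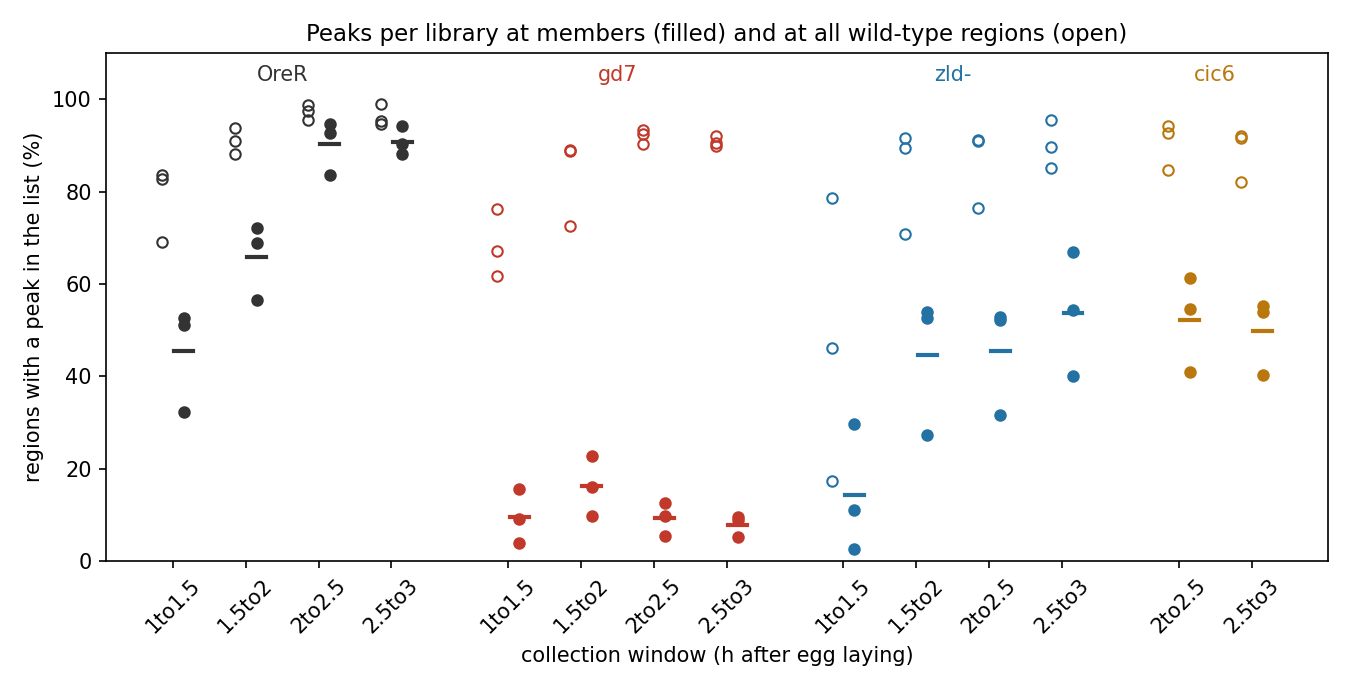
Share of the 760 members (filled points, bar at the mean) and of all 34278 wild-type regions (open points) that had a peak in each of the 42 lists, by genotype and window. The 12 gd7 lists held between 3.82% and 22.8% of the members, and the OreR lists of 1 to 2 h between 32.4% and 72.1%.

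The authors tested 20935 regions of 2114 bp, and 358 members overlapped 349 of them; the other 402 members fell outside the tested set. The members outside were weaker, with a median OreR fold enrichment of 1.85 against 2.18. At 1to1.5 the authors' deposited table for gd7 called 111 of the 349 regions, or 31.8%, lower than OreR at an adjusted p under 0.05, against 4.01% of all tested regions, and 9 were higher, against 4.47%. In the authors' deposited table for 1.5to2, 134 regions, or 38.4%, were lower and 12 higher, against 7.47% and 7.86% of all. These windows did not enter the choice of members. The median log2 fold change at the 349 regions was -0.21 at 1to1.5 and -0.28 at 1.5to2 in the authors' deposited table, and 0.03 and -0.01 over all regions. Both early windows of the authors' deposited table called 93 of the 349 regions lower, while 2.26% of all tested regions were called so. All 4 windows called 92 lower, and a lower call in no window was found at 158 regions. The counts of 92 and 158 include the late windows, whose libraries chose the members. Their shares over all tested regions were not computed.

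At 2to2.5 the authors' deposited table called 126 of the 349 regions lower and 7 higher (3.45% and 2.09% of all tested). At 2.5to3 the authors' deposited table called 168 lower and 8 higher (8.19% and 3.81% of all), with a median log2 fold change of -0.40. The libraries of these windows chose the members, so nothing is read from these counts.

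The regions described next were picked for having the lowest early gd7 values. By the authors' deposited table, a region at Myo81F, an unconventional myosin gene in the pericentromeric part of chromosome arm 3R, at chr3R:608344-610457 had gd7 log2 fold changes of -5.02 (SE 0.63), -8.48 (SE 0.78), -7.32 (SE 0.67) and -10.46 (SE 1.17) in window order. Its zld- and cic6 values lay between -0.20 and 0.33. A region at d4, which encodes a zinc finger protein of the d4 family, at chr2R:5264675-5266788 had gd7 values of -5.21, -6.89, -7.51 and -7.19 in the authors' deposited table, with adjusted p of 6.11e-17 and 2.14e-28 in the first pair of windows. In the same table of each other genotype the d4 region was called higher, by 0.44 to 1.10 in zld- and by 1.46 and 1.47 in cic6. Changes of this size mean that almost no gd7 signal was counted, and their exact value depends on the authors' fit. A second d4 region, at chr2R:5282654-5284767, had gd7 values of -3.67 and -4.19 in the early windows of the authors' deposited table.

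At other deep losses the signal was lower in more than 1 mutant, each compared with the same OreR libraries of its window. The authors' deposited table gave the Fs(2)Ket region gd7 log2 fold changes of -2.47 and -2.38 at 1 to 2 h (adjusted p 3.98e-26 and 5.15e-29). The same Fs(2)Ket region had zld- values of -1.70 to -1.38 and cic6 values of -2.29 and -2.07. At CG42238 the authors' deposited table gave -2.54 and -2.25 in early gd7, -3.05 to -2.52 in zld- and -1.77 and -1.69 in cic6, all called lower. Regions at the Stellate genes Ste:CG33246 and Ste:CG33238 on the X chromosome had gd7 values of -3.60 to -4.34 and zld- values of -2.93 to -3.31 in the authors' deposited table, and cic6 values of -0.34 to -0.22. Stellate is a tandem family of near-identical copies that encode proteins like the beta subunit of casein kinase 2, so the assignment of reads to a copy is uncertain. A region inside cic itself, the Capicua gene, had gd7 values of -1.62 and -1.26, zld- values of -1.12 to -0.80 and cic6 values of -0.93 and -0.82 in the authors' deposited table; it is named after its values were seen.

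**Figure D3:**
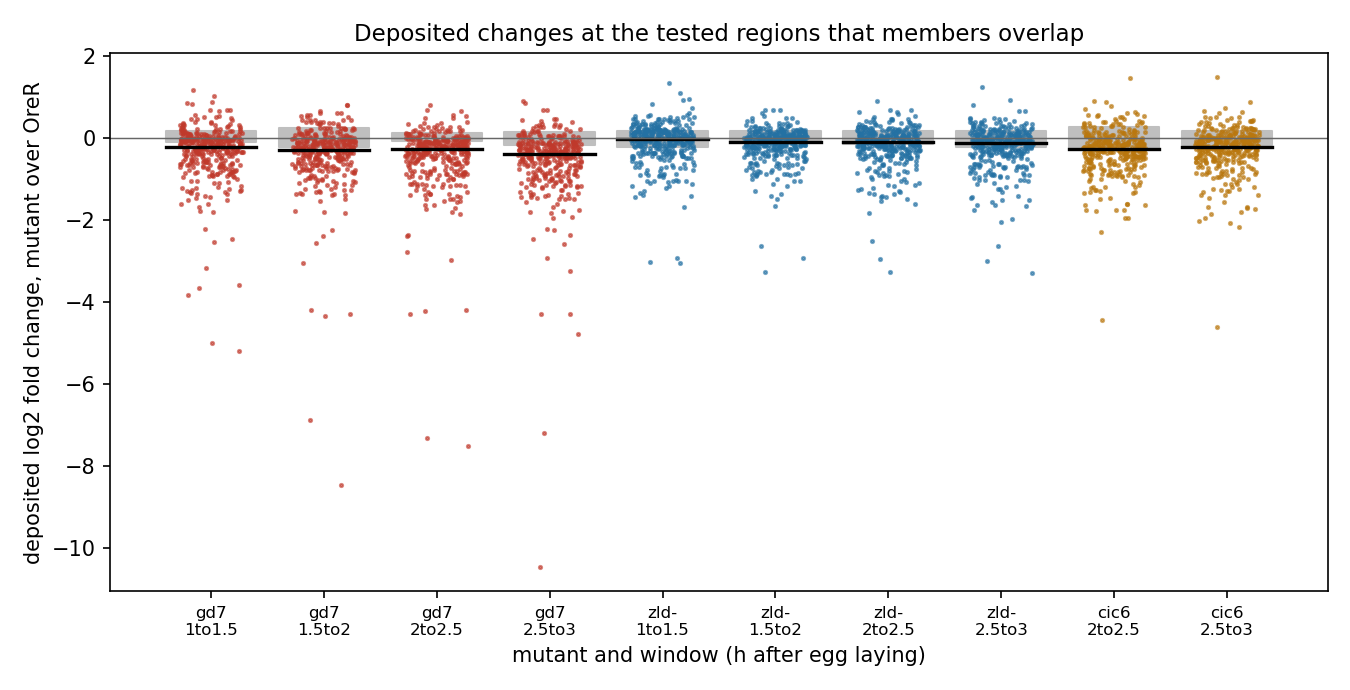
Log2 fold changes of mutant over OreR from the authors' deposited tables at the 349 tested regions that members overlap, 1 point a region; black lines mark their medians and grey bands the middle 50% of all 20935 tested regions. The gd7 medians are -0.21, -0.28, -0.28 and -0.40, and the points reach -10.46.

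Over the 33 regions at members with a gd7 log2 fold change of at most -1 in both early windows of the authors' deposited table, out of 84 such regions in all, the medians by window were -1.48, -1.38, -1.54 and -1.70. The early values picked these regions and the late libraries chose the members, so the medians are given as a description. In the authors' deposited tables for zld- both early windows called 18 of these 33 lower, and for cic6 both windows called 19 lower; these comparisons share OreR libraries with that of gd7 or with the choice of members. Over all tested regions, single windows called 15.6% and 7.49% lower in early zld- and 22.8% and 13.7% in cic6. The share over all tested regions for both windows together was not computed. The proximal 5 Mb of a large chromosome arm held 16 of the 33, and 34.6% of all members that overlap a tested region.

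Missing peaks did not always come with a lower tested signal. A tested region of 2114 bp was wider than most members, so it could also hold signal from outside the member. At the 158 of 349 regions called lower in no gd7 window, the median log2 fold changes were -0.01, -0.05, -0.08 and -0.14 in window order. These regions were picked by the calls of the same windows, so small medians follow from the pick and are given as a description. Although the mthl8 region lacked gd7 peaks, the authors' deposited table gave the tested region around it a higher gd7 signal in all windows, with log2 fold changes of 0.64 to 0.81 (adjusted p 6.31e-05 to 0.00367). The stretch from position 20001 to 45000 of that arm, looked at after these values were seen, held 1 peak in each late OreR list, 9 to 11 in each gd7 list, 3 to 6 in zld- and 4 to 7 in cic6. The other 4 highest early gd7 values at members lay near Mtpbeta, CG7557, CG43672 and BckdhB. Of these, CG43672 was called higher in both early windows of the authors' deposited table (0.87 and 0.53), BckdhB at 1.5to2 only (0.79), and Mtpbeta and CG7557 in neither.

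In wild type many members reached a peak in at least 2 of 3 lists only after 1.5 h. A member was called early if at least 2 of the 3 OreR lists of 1to1.5 held a peak, middle if that was first so at 1.5to2, and late if neither. A middle or late member could thus still have a peak in a single list of an earlier window. By these OreR libraries, which did not choose the members, 343 members (45.1%) were early, 241 (31.7%) middle and 176 (23.2%) late, against 81.8%, 13.9% and 4.28% of all regions. The share of early regions was also low among all weak regions. Within each of the 5 groups of OreR fold enrichment it was lower for members than for all regions, at 31.8% against 61.3% in the weakest group and 85.7% against 99.0% in the strongest. The 15 strongest members were all early. The late class included 2 of the 3 members at BomT1, a gene of the Bomanin family of Toll-induced immune peptides. It also included 3 of the 5 members at stw, which encodes the cuticle laccase straw. The lack of gd7 peaks before 2 h covered 53.6% of early, 51.0% of middle and 67.6% of late members, against 1.41%, 9.35% and 35.0% of all regions of the same classes. Whatever their gd7 lists, 74 members (9.74%, against 1.20% of all regions) had no peak in any early OreR list.

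In zld- and cic6 embryos the members were split. A member was called kept where at least 5 of the 6 lists of 2 to 3 h held a peak and missing where at most 1 did. In zld-, 227 members were kept, 307 lay between and 226 (29.7%) were missing, against 3.30% missing over all regions. In cic6, 240 were kept, 287 lay between and 233 (30.7%) were missing, against 2.61%. Both genotypes lacked the peak at 118 members (15.5%, against 0.70% of all regions) and both kept it at 114 (15%, against 73.7%). All mutants are compared with the same OreR libraries, in which both the members and all regions were selected for having a peak. The part of this selection in the late zld- and cic6 values was not tested. Within the weakest group 29.1% of members were missing in zld- against 6.08% of all regions, and within the strongest 22.9% against 0.788%.

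**Figure D4:**
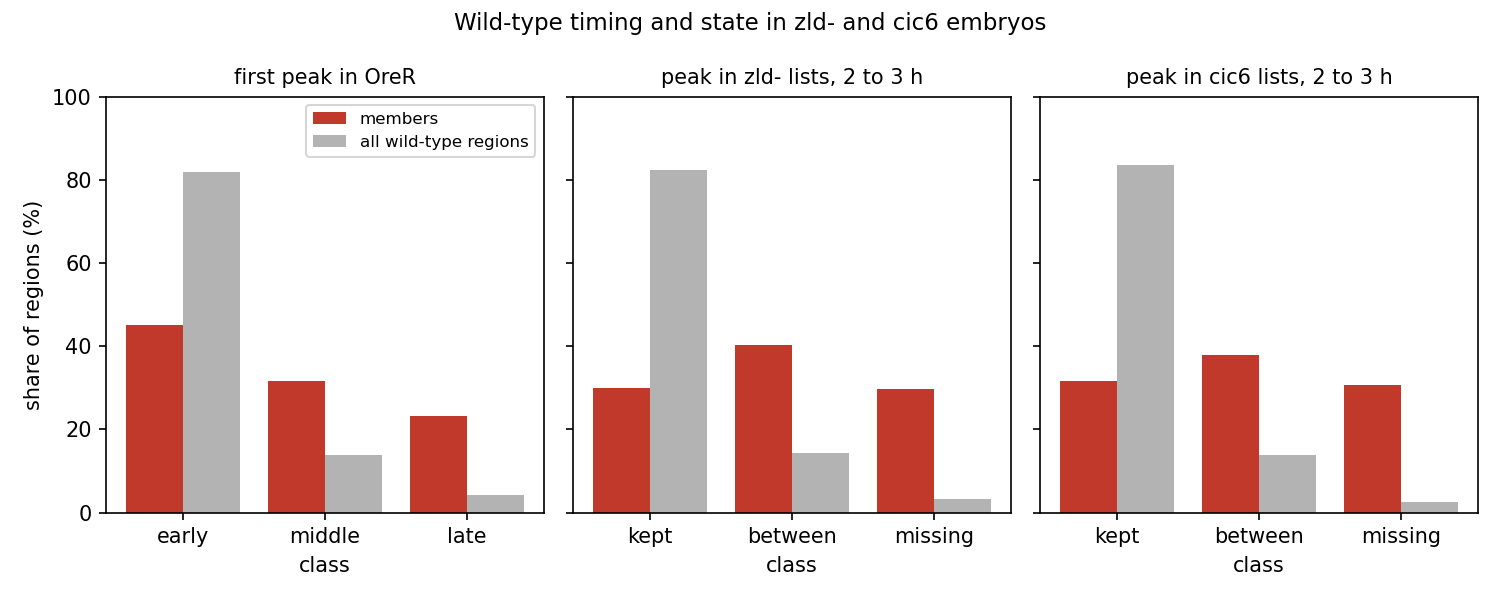
Shares of the 760 members and of all 34278 wild-type regions by the window of the first OreR peak and by the state in late zld- and cic6 lists. Members were early in 45.1% and missing in zld- and cic6 in 29.7% and 30.7%.

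No peak in any of the 30 lists of the mutants was found at 36 members. Beside MFS17 these included a member inside Raf, the kinase of the Torso and other receptor tyrosine kinase pathways, at chrX:2316136-2316565, which had a peak in 8 of 12 OreR lists, none of them at 1to1.5. At 27 members the opposite held, with no peak in 12 gd7 lists and a peak in all 12 late zld- and cic6 lists. These 27 included members at d4, ARY, the Y-linked dynein gene kl-3, the ionotropic receptor genes Ir41a and Ir67a, Pzl, which encodes a relative of the Piezo channel, and Myo81F.

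The zld- libraries of 1 to 2 h, which did not enter the choice, held fewer member peaks than the OreR lists of the same windows. At 1to1.5 the 3 lists held 11.1%, 29.6% and 2.50% of members, a mean of 14.4% ± 13.9 (SD, n = 3). Over all regions the mean was 47.4% in zld- and 78.5% in OreR, so the zld- lists of this window held fewer peaks generally. The lowest of them, replicate 3, had a list of 6831 peaks that held 17.2% of all regions, and without it the mean was 20.3%. At 1.5to2 they held 53.8%, 52.6% and 27.2%, a mean of 44.6% ± 15 (SD, n = 3), and 83.9% of all regions, and all of these lay below the OreR lists. The part of the zld- lists' length, 6831 to 55699 peaks at 1 to 2 h, in this was not tested. In the authors' deposited table for zld- at 1to1.5, 76 of the 349 regions (21.8%) were lower and 34 higher, against 15.6% and 10.4% of all. At 1.5to2 the authors' deposited table called 74 (21.2%) lower and 12 higher, against 7.49% and 4.66%. The median log2 fold changes at members were -0.03 and -0.09.

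At 2 to 3 h the zld- lists held means of 45.6% ± 12 and 53.7% ± 13.4 of members, against 86.2% and 90.1% of all regions. The cic6 lists held 52.3% ± 10.4 and 49.8% ± 8.31 of members (SD, n = 3 each), against 90.6% and 88.5% of all regions. For zld- the authors' deposited table called 97 regions lower and 24 higher at 2to2.5, against 13.4% and 7.82% of all tested, and 110 lower and 28 higher at 2.5to3, against 17.1% and 14%. For cic6 the authors' deposited table called 182 lower and 34 higher at 2to2.5, against 22.8% and 26.2%, and 141 lower and 27 higher at 2.5to3, against 13.7% and 14%. The share lower at members was therefore 27.8% and 31.5% in zld- and 52.1% and 40.4% in cic6. The region with the lowest cic6 values, -4.44 and -4.61 in the authors' deposited table, lay between genes nearest DIP1, which encodes a double-stranded RNA-binding protein, and had gd7 values of 0.09 to 0.36. That region is named after its values were seen.

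Few of the missing peaks lay at the genes that pattern the dorsoventral axis. Among regions within 10 kb of 12 mesoderm, 17 neuroectoderm or mesectoderm and 16 dorsal ectoderm or amnioserosa genes, 3 of 361 were members, or 0.831% beside 2.22% of all. The mesoderm genes had 1 of 119, next to twi, the mesoderm activator Twist, at chr2R:23033766-23034358, a weak peak with a mean OreR fold enrichment of 1.68. It was present in 5 late OreR lists, 1 late gd7 list, 1 late zld- list and 2 cic6 lists. The neuroectoderm genes had 0 of 130. The dorsal genes had 2 of 112, near tup, a LIM-homeodomain gene, and near Ady43A. Of the maternal dorsoventral genes, spz, which encodes Spaetzle, had 1 member, at chr3R:27072529-27073131, of 63 regions at 9 such genes.

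At the other listed genes the counts were small, and the share of members ran from 0% to 3.75% by list, beside 2.22% of all regions. Gap and terminal genes had 2 of 92 regions (2.17%), 4342 bp from kni, a gap gene, and inside oc, the head gap gene also called orthodenticle. Pair-rule and segment polarity genes had 0 of 94, Hox genes 0 of 146 and cellularization genes 0 of 19. Genes of fold formation and early division had 1 of 68 (1.47%), at cv-c, and ribosomal protein genes 3 of 80 (3.75%), near RpL5, RpL8 and RpS9.

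Members overlapped 1.67% of all tested regions, so a count of 0 in an enhancer group of this size is close to that share. The authors' deposited table for gd7 marks tested regions by the pattern of a known enhancer, and members overlapped 0 of 37 ventral, 0 of 21 neuroectoderm, 0 of 19 dorsal and 2 of 18 anterior ones. All 37 ventral regions had a peak in each of the 6 late gd7 lists. Of these 37, the authors' deposited table called 7 lower at 1to1.5, 1 at 1.5to2, 1 at 2to2.5 and 5 at 2.5to3, all of them with a peak in the late gd7 lists. Over all tested regions the shares called lower in gd7 were 4.01%, 7.47%, 3.45% and 8.19% in the same order. Both anterior ones are those at kni and oc. At the kni enhancer the authors' deposited table gave gd7 log2 fold changes of -0.25, -0.33, -0.63 and -0.69 in window order. The deposited zld- table names an enhancer in 27 of the 349 regions (7.74%) and in 11.2% of all tested regions. Among these 27, the regions at sff, a kinase gene, and brp, which encodes the synaptic active zone protein Bruchpilot, had the lowest early gd7 values, -0.42 and -0.68 at sff and -0.71 and -0.37 at brp in the authors' deposited table.

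The share of missing peaks was low at gene ends and high near centromeres. Within 500 bp of a gene end lay 77 members (10.1%, against 27.0% of all regions), inside genes 343 (45.1% against 40.7%), between genes 321 (42.2% against 25.0%), and on contigs without annotated genes 19 (2.5% against 7.24%). The Y chromosome held 0.789% of members and 2.28% of all regions. The gene table used gives no exons or strand, so exonic, intronic and untranslated positions are not told apart. The proximal 5 Mb of the 5 large arms held 239 members (31.4%) and 19.0% of all regions. The share of wild-type regions that were members was 3.90% in the first Mb from the proximal end, 4.70% at 1 to 2 Mb, 3.12% at 4 to 5 Mb, 2.14% from 5 to 10 Mb and 1.97% beyond 15 Mb. In each of the 5 strength groups the proximal share was higher for members: 30.5% of members against 19.5% of all regions were proximal in the weakest group, and 42.9% against 14.5% in the strongest.

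**Figure D5:**
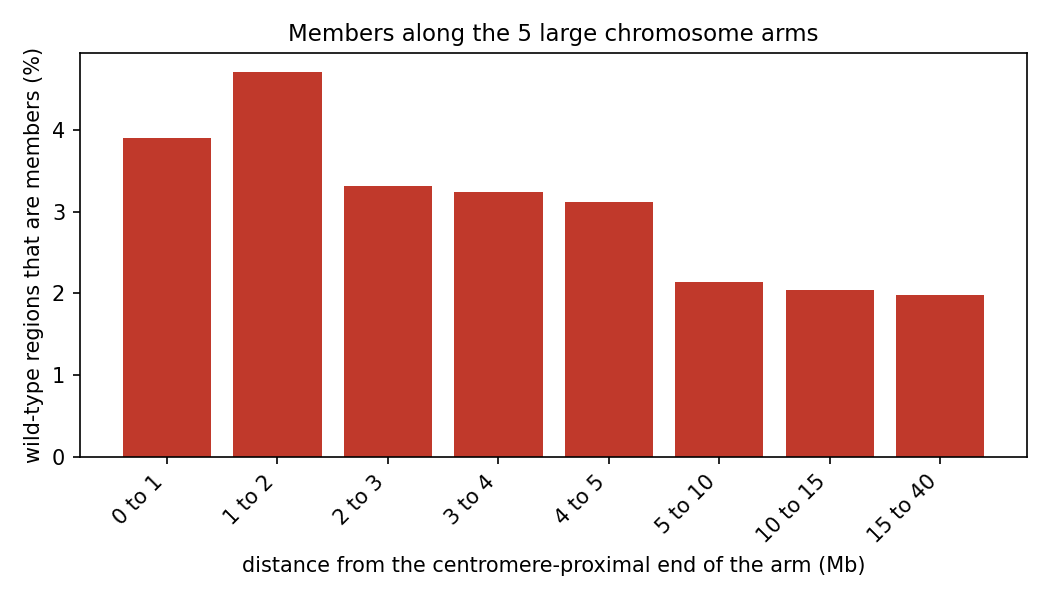
Share of wild-type regions on the 5 large chromosome arms that were members, by distance from the centromere-proximal end of the arm in Mb. The bars run from 4.70% at 1 to 2 Mb to 1.97% beyond 15 Mb; the bins differ in width.

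The members were nearest to 569 genes, of which 35 had at least 3. Myo81F had the most members, 27, and with 671 also the most wild-type regions of these 35 genes. In the proximal 5 Mb of the large arms, 3.67% of all wild-type regions were members. The 27 members at Myo81F spanned 2425 kb of proximal 3R from chr3R:87376 to chr3R:2512000. Of these 27, 20 were early, 21 had no peak in the early gd7 lists, 14 were kept in zld- and 15 in cic6, and the authors' deposited table called 9 of its 20 tested regions lower in both early gd7 windows. Pzl had 13 members of 195 regions and no tested region called lower in both early windows of the authors' deposited table. DIP1 had 11 of 76, with 8 lacking early gd7 peaks. The gene d4 had 4 of only 9 regions, all within 19.9 kb of 2R, each without a peak in any gd7 list of 1 to 2 h and all kept in cic6. At conu 4 of 10 regions were members, and at BomT1 3 of 6. Around Stlk, which encodes a Ste20-like kinase, 4 of 16 regions were members, all early and none kept in cic6. Another member lay within 20 kb of 222 members (29.2%). The same share for an equal number of other wild-type regions was not computed, so no clustering is read from it.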

How the data were processed

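Peak lists of 42 ATAC-seq libraries and 3 comparison tables were used as deposited. The submitters' processing notes name the build dm6, Bowtie2 2.3.5.1, Picard 2.23.8, MACS2 2.2.7.1 and DESeq2, with no settings; any shift of reads for Tn5 is not given in the sources used here. Each deposited list gives, per peak of 1 library, a score, a fold enrichment (ratio) over background, the −log10 of a p-value and q-value, and a summit position in bp, as computed by the authors. In the 12 lists that chose the members no −log10 q was under 1.30. The deposited tables give a mean normalized signal, a log2 fold change with its SE, a test statistic (score) and a p-value, raw and adjusted, per region; the authors' calls at an adjusted p under 0.05 were counted, each distinct region once. No count per library comes with them.

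Lists were merged and overlapped in Python 3.11.15 with pandas 2.3.3 and numpy 2.4.6. Early gd7 windows were compared over all regions by a Wald test on the difference between their log2 fold changes, with Benjamini-Hochberg adjustment, in scipy 1.17.1, which treats the windows as independent; the step was tested on simulated data. Genes came from a RefSeq table of Release 6, by the nearest gene. Coordinates are 1-based. Members, gene lists and tests were chosen with earlier results of these data known. Named are the 15 strongest members, the 10 lowest and 5 highest early gd7 regions, members at listed genes, members at named enhancers and genes with at least 3 members; exceptions are marked. The motif search was not run because it needs a genome, which was not used here.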

Additional observations from a re-analysis of the deposited data

Results flagged for a closer look

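At 7 of the 349 tested regions at members (2.01%) the deposited gd7 log2 fold change differed between 1to1.5 and 1.5to2, by the Wald test of the difference with Benjamini-Hochberg adjustment over all 20935 regions, where 248 (1.18%) differed. These are changes between windows of gd7 relative to OreR, the second window minus the first. The change fell by 3.46 at Myo81F (SE 1.00, adjusted p = 0.0462), from -5.02 to -8.48. Almost no gd7 signal was counted at Myo81F in either window, so this difference depends on the authors' fit and is not read as further loss. It fell by 0.864 at DIP-kappa (adjusted p = 0.0105) and fell by 0.572 at CG33080 (adjusted p = 0.0173), from above 0 to below 0 in each. It rose by 1.06 at CG41128 (adjusted p = 0.00743), by 0.891 at CG42680 (adjusted p = 0.0131), by 0.887 at CG7560 (adjusted p = 0.00291) and by 0.758 at CG17300 (adjusted p = 0.00398), from below 0 to above 0 in each of these 4. The other 342 regions did not pass this test.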

How the results depend on the processing

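The number of members depended on the rule: 173 with a peak in 6 of 6 OreR and 0 of 6 gd7 lists, 2912 with 4 of 6 and at most 2 of 6, and 1182 to 2052 when an OreR or gd7 replicate was left out, which leaves 4 lists of that genotype and so a looser rule. Every one of the 6 left-out replicates moved it by over 1.5 times: 2052, 1504 and 1291 without OreR replicate 1, 2 and 3, and 1471, 1182 and 1353 without gd7 replicate 1, 2 and 3. Replicates are numbered as in the sample titles, while the names of the OreR and gd7 files carry other numbers. A −log10 q of at least 2 in every list or in OreR only, lists of equal length, peaks required to cover at least 50% of the merged region and summits extended by 250 bp gave 651 to 1014, and 443 of the 760 members overlapped a member found with lists of equal length. The share of tested regions called lower, in percent, is given next for gd7 at 1to1.5, 1.5to2, 2to2.5 and 2.5to3, zld- in the same order and cic6 at 2to2.5 and 2.5to3. With 6 of 6 and 0 of 6 lists it was 49.6, 51.3, 55.7 and 65.2 in gd7, 28.7, 35.7 and 41.7 in zld- from 1.5to2 on, and 59.1 and 50.4 in cic6. With 4 of 6 and at most 2 of 6 it was 15.6, 20.8, 17.3 and 29.3, then 14.6, 11.9, 18.0 and 23.0, then 42 and 27.7. The zld- share at 1to1.5 was then below the 15.6% of all tested regions. With a log2 fold change of at most -0.5 required as well it was 31.2, 31.2 and 39.3 in gd7 from 1.5to2 on, 14.3, 14.6, 17.2 and 21.5 in zld-, and 29.2 and 24.4 in cic6. With that coverage gd7 gave 26.6 at 1to1.5, 30.2 at 2to2.5 and 39.8 at 2.5to3. For members over 5 Mb from the proximal end of an arm, chosen after seeing the data, gd7 gave 25.2 at 1to1.5 and 30.1 at 2to2.5. Leaving out a replicate gave 19.9 to 25.3, 24.5 to 30.8, 21.5 to 28.4 and 31.6 to 40.9 in gd7, 16.6 to 19.4, 13.7 to 17.2, 18.5 to 24.1 and 23.7 to 29.3 in zld-, and 42.2 to 49.0 and 28.8 to 36.0 in cic6. Members at dorsoventral genes numbered 2 within 2 kb and 6 within 20 kb. Without zld- replicate 3 the share of members with a peak at 1to1.5 was 20.3%. Of 186 recomputed values, 95 stayed within the 95% binomial interval of the reported value, within 1.5 times a count or within 1 SD. Centred fold changes, matching by midpoint, the −log10 q limits, equal lengths and summits left all 10 shares within that interval. No paired analysis was possible because the calls come from the authors' tables, which hold no value per library, and the shares of chosen members per list were not tested. Depth is unknown, so its part in calls at weak peaks was not tested.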
